A study of Mus musculus with 11 samples.

Results

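Sftpd, Cbr2, Slc34a2 and Spock2, 4 genes of the lung epithelium, were followed across 11 mouse RNA samples. They are 4 of 7114 genes that could be named on the array, and 6 of its 15247 probes report on them. They were chosen by their measured levels, which all stood high in the array labelled Liver, so their height there is a description and not a test. The samples were 3 lines labelled D6_MEL, NRAS_MEL and HRAS_MEL, the line Melan A (an established mouse melanocyte line), the fibroblast line 3T3, the samples VA_MEF and VA_475, and RNA labelled Heart, Kidney, Liver and Lung. The series title concerns RAS isoforms in melanocytes, for which the organs and fibroblasts are further samples. The labels give no genotype, treatment, strain, age or passage beyond these names and the cell codes C3 for D6_MEL, C3 Nras for NRAS_MEL, 862 for HRAS_MEL, B475 for VA_475 and BAKE for VA_MEF. They do not say whether a line is 1 clone or an organ sample a pool. Every sample was labelled with Cy3 and hybridised beside the same mouse embryo reference RNA labelled with Cy5, on 1 array, so no value below has a replicate error.

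Gas exchange in the lung takes place across alveoli, which are lined by flat type 1 cells and cuboidal type 2 cells. Type 2 cells make surfactant, a film of lipid and protein that keeps alveoli open, while club and ciliated cells line the airways. Sftpd encodes surfactant protein D, a collectin that type 2 and club cells secrete and that binds sugars on microbes. Slc34a2 encodes the sodium-phosphate cotransporter NaPi-2b, which in the lung lies in the apical membrane of type 2 cells. Cbr2 encodes a mitochondrial carbonyl reductase that is abundant in mouse airway epithelium. Spock2 encodes testican-2, a secreted proteoglycan whose transcript marks type 1 cells in the lung.

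The values are log2 ratios of a sample's own RNA over the reference, centred on each array's median. The direction is likely and not stated. The deposited table was read as reference over own RNA and its sign turned, whereas the sample titles put the sample first. The basis is that organ genes are high in 1 tissue and low elsewhere. In the deposited values the hepatocyte list (5 genes) had its most distant array at -7.39 from the list's median over arrays, the kidney tubule list (3 genes) at -5.52 and the cardiomyocyte list (2 genes) at -4.55. If the titles describe the deposited sign, every signed value here turns, and these 4 genes would be lowest, not highest, in the array labelled Liver. Several labels disagree with the markers in the direction taken. Hepatocyte genes peaked in the array labelled Lung and cardiomyocyte genes in that labelled Melan A, while kidney tubule genes peaked under their own label. Arrays are therefore named by their labels, and none was moved.

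The promoters are shown as background. Shared control of the 4 genes, which were chosen as high in 1 array, was not tested. RefSeq promoters (build GRCm38.p6) matched 3 of the 4, Cbr2, Slc34a2 and Spock2; Sftpd was not matched. The 250 bases before the start of transcription are given, 5′ to 3′ on the gene's strand. Capitals mark the letters searched for, which were chosen with the sequences in view and searched on both strands. They are CAAG, the core bound by the lung factor NKX2-1 (CTTG on the other strand), TTGCGCAA, the palindrome bound by C/EBP factors, TGTTTAC of FOXA factors, and TATAAA and TATATA of TATA boxes.
Cbr2, chr11:120732022-120732271, minus strand: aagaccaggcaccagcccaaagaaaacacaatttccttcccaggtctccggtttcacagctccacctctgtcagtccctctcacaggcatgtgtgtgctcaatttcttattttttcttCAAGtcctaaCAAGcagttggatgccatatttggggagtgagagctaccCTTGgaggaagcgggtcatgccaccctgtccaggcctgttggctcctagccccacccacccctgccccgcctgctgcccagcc
Slc34a2, chr5:53049103-53049352, plus strand: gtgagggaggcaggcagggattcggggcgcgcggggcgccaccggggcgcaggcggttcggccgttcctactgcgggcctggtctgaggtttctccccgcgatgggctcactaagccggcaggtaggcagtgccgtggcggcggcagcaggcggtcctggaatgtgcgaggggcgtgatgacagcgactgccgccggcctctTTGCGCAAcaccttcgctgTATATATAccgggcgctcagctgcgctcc
Spock2, chr10:60106007-60106256, plus strand: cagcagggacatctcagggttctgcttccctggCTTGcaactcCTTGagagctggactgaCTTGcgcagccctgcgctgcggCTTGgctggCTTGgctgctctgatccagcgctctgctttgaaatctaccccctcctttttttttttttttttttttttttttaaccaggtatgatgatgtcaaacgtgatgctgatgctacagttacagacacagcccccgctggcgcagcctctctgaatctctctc

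The window of Slc34a2 holds TTGCGCAA, beginning at base -48, which 0.164% of 32851 RefSeq windows of this length hold. It also holds TATATA in 2 overlapping copies from base -29, a motif found in 5.25% of windows. The core CAAG was found 3 times before Cbr2 and 5 times before Spock2, and 86.6% of all windows hold it. TGTTTAC and TATAAA, held by 3.17% and 12.4% of windows, were not found in these 3. The GC content was 69.6% before Slc34a2, 55.6% before Cbr2 and 51.2% before Spock2, against a median of 52.4%. A match describes letters and not a binding site.

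Sftpd, the collectin, was read by 1 probe (210425). It stood at 5.75 in the array labelled Liver, 53.8-fold above the reference. It stood at -1.25 in the array labelled Lung, -2.10 in Kidney, -1.86 in the array labelled Heart and -2.04 in that labelled Melan A. In the lines it stood at -1.71 in D6_MEL, -1.64 in NRAS_MEL, -1.43 in HRAS_MEL, -1.56 in 3T3, -2.24 in VA_MEF and -1.91 in VA_475. The array labelled Liver was thus alone above the reference, and the other 10 lay within 0.99 of each other. The gap from that array down to the next, the array labelled Lung, was 7.0.

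Slc34a2, the phosphate transporter, was read by 2 probes (203983 and 209652). Their mean stood at 4.88 in the array labelled Liver, 29.4-fold above the reference, with the probes at 4.61 and 5.15. The mean was -0.54 in the array labelled Lung, -0.92 in Kidney, -1.64 in the array labelled Heart and -1.44 in that labelled Melan A. It was -1.62 in D6_MEL, -1.47 in NRAS_MEL, -2.19 in HRAS_MEL, -1.87 in 3T3, -1.99 in VA_MEF and -1.94 in VA_475. The arrays labelled Lung and Kidney came next after the one labelled Liver, and both were still below the reference.

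Cbr2, the carbonyl reductase, was also read by 2 probes (209170 and 209266). Their mean stood at 6.10 in the array labelled Liver, 68.4-fold above the reference, with the probes at 6.24 and 5.95. The mean was -1.61 in the array labelled Lung, -1.28 in Kidney, -2.24 in the array labelled Heart and -0.41 in that labelled Melan A. It was -2.04 in D6_MEL, -1.94 in NRAS_MEL, -0.27 in HRAS_MEL, -0.47 in 3T3, -1.27 in VA_MEF and -1.19 in VA_475. Cbr2 was the member with the widest range over those 10 arrays, at 1.97.

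Spock2, the proteoglycan, was read by 1 probe (200243). It stood at 2.05 in the array labelled Liver, 4.13-fold above the reference. It stood at -2.56 in the array labelled Lung, -2.60 in Kidney, -3.19 in the array labelled Heart and -1.91 in that labelled Melan A. In the lines it stood at -2.17 in D6_MEL, -2.29 in NRAS_MEL, -2.82 in HRAS_MEL, -2.11 in 3T3, -2.0 in VA_MEF and -3.04 in VA_475. The 10 arrays other than the one labelled Liver were all at least 2-fold below the reference.

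**Figure D1:**
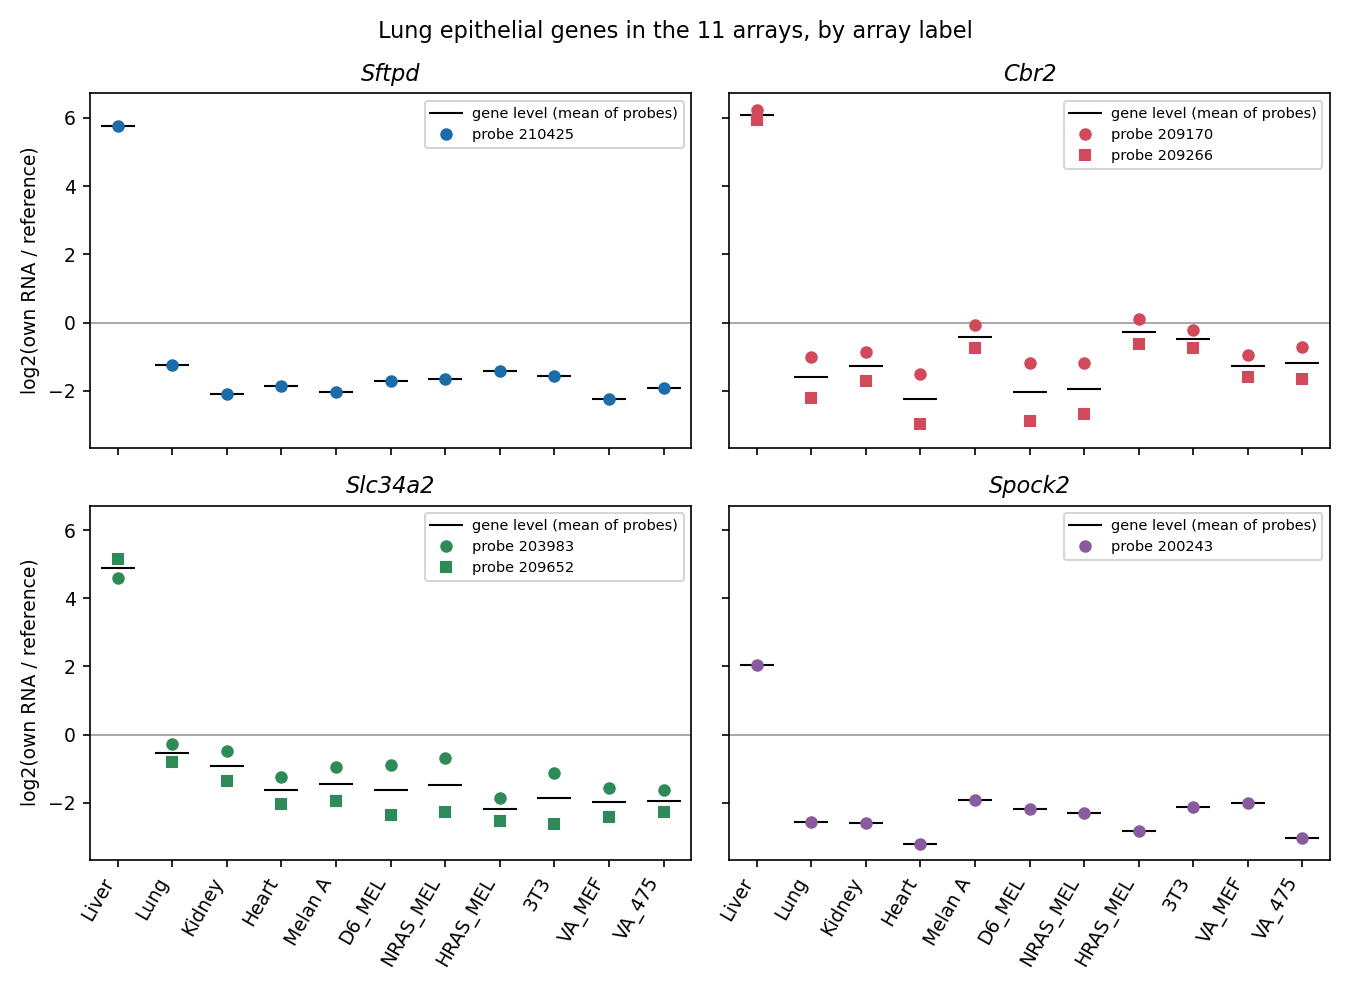
Each panel plots 1 gene, with the 11 arrays by label on the horizontal axis and log2 of own RNA over reference on the vertical axis; coloured points are probes and black bars their mean. All 4 genes are above 0 in the array labelled Liver, from 2.05 to 6.10, and their gene levels are below 0 in the other 10; in the signs as deposited the picture would be upside down.

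In all 10 other arrays each of the 4 genes, as the mean of its probes, lay below the embryo reference. Of 7039 genes, 7.94% showed this pattern. For Cbr2 it rests on the mean, as probe 209170 stood at 0.09 in HRAS_MEL. Sftpd and Spock2 were at least 2-fold below the reference in all 10, as were 1.32% of genes. In the array labelled Liver all 4 were at least 2-fold above it, as were 6.12% of 7088 genes. Signal intensities were not used here, so whether a sample's own signal rose above background is unknown. In RNA from whole organs, fewer cells of a type and less RNA per cell cannot be told apart.

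Against the median of the other 10 arrays, the array labelled Liver was higher by 7.54 for Sftpd, 7.37 for Cbr2, 6.51 for Slc34a2 and 4.47 for Spock2. As folds these are 186, 166, 91.1 and 22.2. All 4 were at least 2-fold higher, as the choice of the genes fixed; 9.59% of 7088 genes were (3.02% at 4-fold), 3.1% were at least 2-fold lower, and the median difference over all genes was 0.04. Sorted by that difference, the 4 genes held places 4, 5, 6 and 27. Sorted by the lead of the array labelled Liver over the next highest array, a lead of at least 2-fold was seen in 1.52% of genes, and the 4 held places 1, 2, 3 and 6. Between them and after them came Lyz2 (lysozyme, made by type 2 cells and macrophages) with a lead of 5.19, Cdkn1c (the cell cycle inhibitor p57) at 4.45, Dynlrb2 (a dynein light chain) at 3.76, Lpcat1 (an acyltransferase that makes surfactant lipid) at 3.64, Mfap4 (a microfibril protein) at 3.58 and Tppp3 (a tubulin-binding protein) at 3.33.

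**Figure D2:**
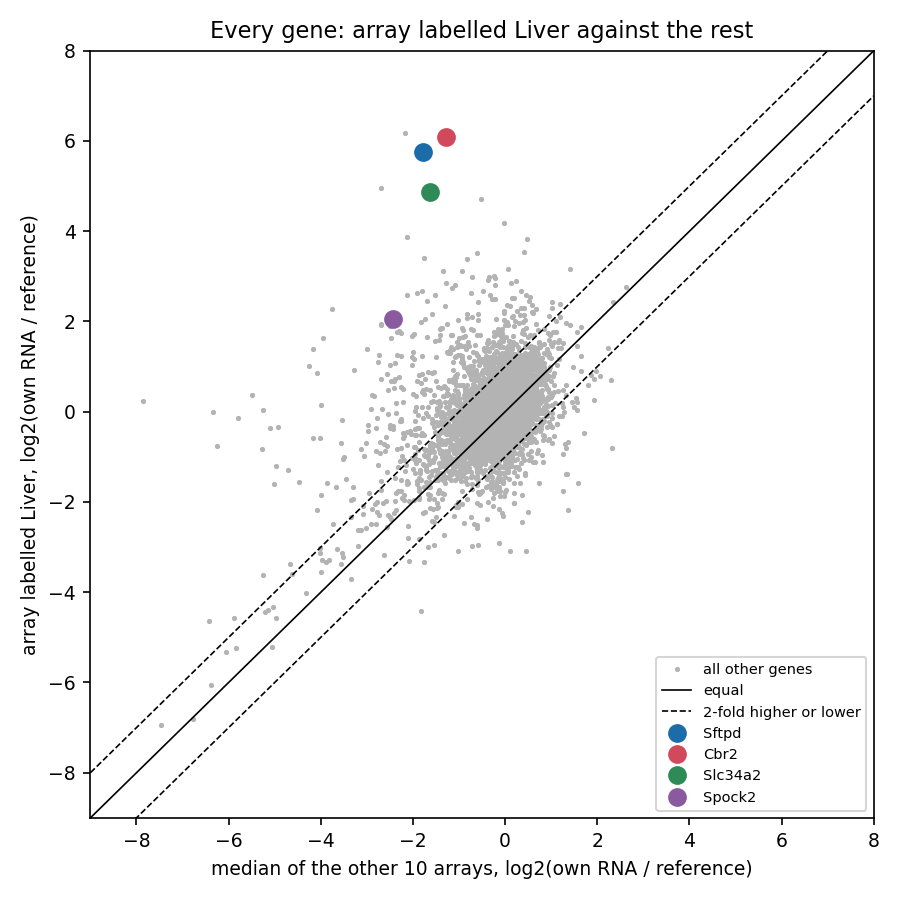
Each grey point is 1 gene, with the median of the other 10 arrays on the horizontal axis and the array labelled Liver on the vertical axis, both as log2 of own RNA over reference; the solid line marks equality and the dashed lines 2-fold. Sftpd, Cbr2 and Slc34a2 lie in the sparse upper edge of the cloud and Spock2 lower, at 2.05.

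The array that carries the Lung label was set against the one labelled Liver directly. Sftpd was higher in the latter by 7.0, Cbr2 by 7.70, Slc34a2 by 5.42 and Spock2 by 4.61, with a median of 6.21. At least 2-fold higher were 12.6% of all genes. Against Kidney the differences were 7.85, 7.38, 5.80 and 4.65 in the same order. Between the arrays labelled Lung and Kidney, Sftpd was 0.85 higher in the former, Slc34a2 0.38 and Spock2 0.04, while Cbr2 stood at -0.32. These 3 comparisons share arrays.

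With no replicate arrays, the only spread on hand is that between probes of a gene. Over genes with several probes it was 0.46 (SD, each probe's own median removed). That puts the SD of a difference between 2 arrays at 0.64 for a gene with 1 probe and 0.46 for a gene with 2. That SD leaves out the spread between samples, and a step past it can arise from the spread between probes alone. For Sftpd and Spock2, 0 of 9 neighbouring steps in the order of the other 10 arrays passed that size. The order from the array labelled Lung (-1.25) to VA_MEF (-2.24) for Sftpd, and from the array labelled Melan A (-1.91) to the array labelled Heart (-3.19) for Spock2, therefore has no step larger than it.

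For Cbr2 and Slc34a2, 1 of 9 steps each passed it. HRAS_MEL, the array labelled Melan A and 3T3 had Cbr2 levels of -0.47 to -0.27 and stood 0.72 above the next, VA_475. Both probes had this break, by 0.51 and 0.83, of which the first falls short of the 0.64 for 1 probe. The lowest Cbr2 levels were in NRAS_MEL, D6_MEL and the array labelled Heart. HRAS_MEL was 1.77 above D6_MEL, by 1.28 and 2.26 in the 2 probes, where 5.23% of genes were at least 2-fold higher. NRAS_MEL was 0.11 above D6_MEL, and the array labelled Heart stood at -0.20 from D6_MEL. The 2 probes of Cbr2 were 0.30 apart in the array labelled Liver and 1.70 apart in D6_MEL.

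For Slc34a2 the step lay below the arrays labelled Lung and Kidney, which stood 0.53 above the next. Both probes put these arrays on top, by 0.22 and 0.58, and neither step reached the 0.64 that applies to 1 probe. HRAS_MEL was lowest for Slc34a2 and highest of the 10 for Cbr2. HRAS_MEL minus D6_MEL was -0.57 for Slc34a2, -0.65 for Spock2 and 0.28 for Sftpd.

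**Figure D3:**
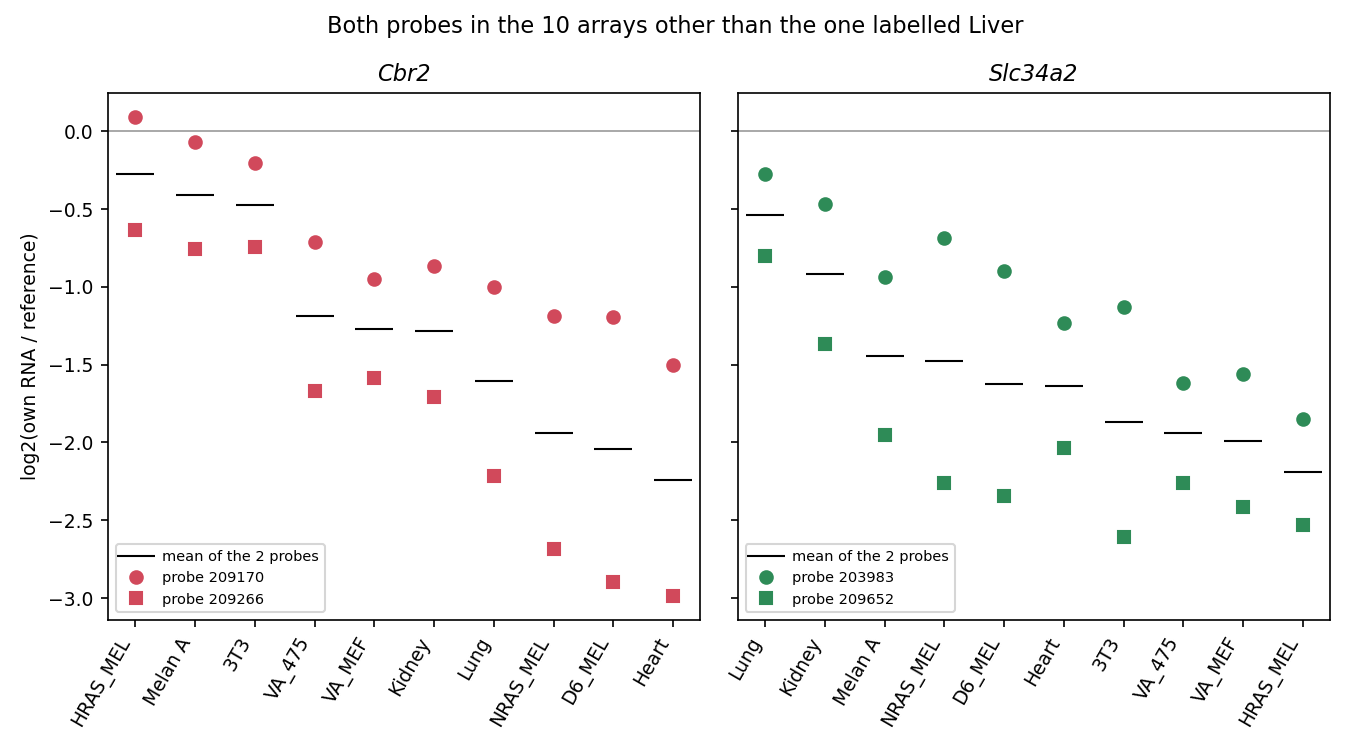
Levels of Cbr2 and Slc34a2 in the 10 arrays other than the one labelled Liver, as log2 of own RNA over reference, with the arrays sorted by the mean of the 2 probes; points are probes and black bars their mean. HRAS_MEL, Melan A and 3T3 stand above the other 7 in both Cbr2 probes, and Lung and Kidney above the other 8 in both Slc34a2 probes.

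Over the 11 arrays the 6 pairs of these genes had Pearson correlations of 0.91 to 0.97. Without the array labelled Liver the same pairs lay between -0.34 and 0.27, so the likeness rests on that array. Over the 6 arrays of lines other than the one labelled Melan A, the lowest was -0.84, for Cbr2 and Slc34a2. The arrays share the reference RNA, and 6 to 11 points describe these samples only.

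The genes whose profile over the 11 arrays was most like the mean of the 4 were Cbln1 (r = 0.98), Ccdc153 (0.97), Eya2 (0.97), Rubcnl (0.96) and Dynlrb2 (0.96). S100a9 (0.95), Mfap4 (0.95), Mak (0.94), Cfap161 (0.94) and 2610028H24Rik (0.94) followed. Ccdc153, Dynlrb2, Mak and Cfap161 encode proteins of cilia and flagella, and S100a9 a calcium-binding protein of neutrophils. Cbln1, a secreted cerebellin, stood at 3.17 in the array labelled Liver and at a median of 0.06 elsewhere. Ccdc153 stood at 2.58 and -0.34, and Dynlrb2 at 3.39 and -0.82. S100a9 followed the profile from below the reference, at -1.56 in the array labelled Liver and -4.47 elsewhere. By member, Ccdc153 was nearest to Sftpd (0.97), Sftpd to Cbr2 (0.95), Eya2 to Slc34a2 (0.98) and Mfap4 to Spock2 (0.97). Without the array labelled Liver, a check chosen after seeing the data, the 10 genes had correlations with the mean of the 4 between -0.36 (Dynlrb2) and 0.70 (Cbln1), with a median of 0.32.

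Other genes of lung epithelium, outside the members, were looked at next. Their lists were written with earlier results of these data known, so the counts describe and test nothing. Over 5 lists, 19 of 75 written genes were measured. Of these, 16 were at least 2-fold higher in the array labelled Liver than the median of the other 10, and 0 were at least 2-fold lower. The median difference was 2.59, against 0.04 over all genes and 9.59% of genes higher. Of the 19, 7 led the next highest array by at least 2-fold, as did 1.52% of all genes. Sftpa1, Sftpb, Sftpc, Scgb1a1, Ager, Aqp5 and Nkx2-1 were on the lists and not among the named genes measured here.

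Of the type 2 cell list, 6 of 6 measured genes were at least 2-fold higher, with a median of 3.72. Measured the same way, 3 of 6 were higher in Kidney, and 3 were higher and 2 lower in the array labelled Lung. Of all genes, 11.6% were at least 2-fold higher in Kidney. That share was not computed for the array labelled Lung, so its count cannot be weighed. In the array labelled Liver, Lyz2 was higher by 8.36, the mucin gene Muc1 by 4.47 and Lpcat1 by 4.07. Abca3, the lipid pump of surfactant storage organelles, was higher by 3.37. Abca3 stood at 2.64 in the array labelled Liver and at 2.14 in Kidney. Ctsh, a protease that processes surfactant proteins, stood at 2.03 in the array labelled Liver and at 1.94 in that labelled Lung. Of the type 1 list, 2 of 3 were at least 2-fold higher in the array labelled Liver. The count was also 2 of 3 in HRAS_MEL and in VA_475, each against its other 10 arrays. For HRAS_MEL and VA_475 the share of all genes was not computed, so these counts cannot be weighed. In the array labelled Liver, Gprc5a, an orphan receptor, was higher by 4.13 and caveolin-1 (Cav1) by 2.91, while Sema3e differed by 0.41. Cbr2 was the gene of the club cell list with a value in the array labelled Liver.

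Of the ciliated cell list, 4 of 5 were at least 2-fold higher, led by Tppp3 at 6.03 and Dynlrb2 at 4.21, with Rsph1 at 1.18 and the tubulin Tubb4b at 1.12. Of the transcription factor list, 4 of 5 were, with Elf3 at 2.59, Gata6 at 2.30, Id2 at 1.91 and Klf5 at 1.57, none of them ahead of the next array by 2-fold. Gata6 stood at 1.47 in the array labelled Liver and 1.37 in that labelled Melan A, and Id2 was highest in Kidney, at 1.67.

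Genes of epithelial junctions and keratins were higher in 11 of 11 cases, with a median of 3.08. The largest differences were 5.59 for Krt7, 4.73 for the claudin Cldn3, 4.14 for Krt8 and 3.11 for Spint1, a protease inhibitor of epithelia. Of the 11, 5 led the next highest array by at least 2-fold, as did 1.52% of all genes. Krt8 stood at 0.16 in the array labelled Liver and 0.55 in that labelled Lung. Spint1 stood at 0.69 in the array labelled Liver and 1.10 in Kidney. In Kidney 7 of these 11 were at least 2-fold above the median of the other 10 arrays, where 11.6% of all genes were, and E-cadherin (Cdh1) reached 2.19 there against 1.69 in the array labelled Liver. The 4 lung genes stood between -2.60 and -0.92 in Kidney, but they were chosen by their levels, so this is a description only.

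**Figure D4:**
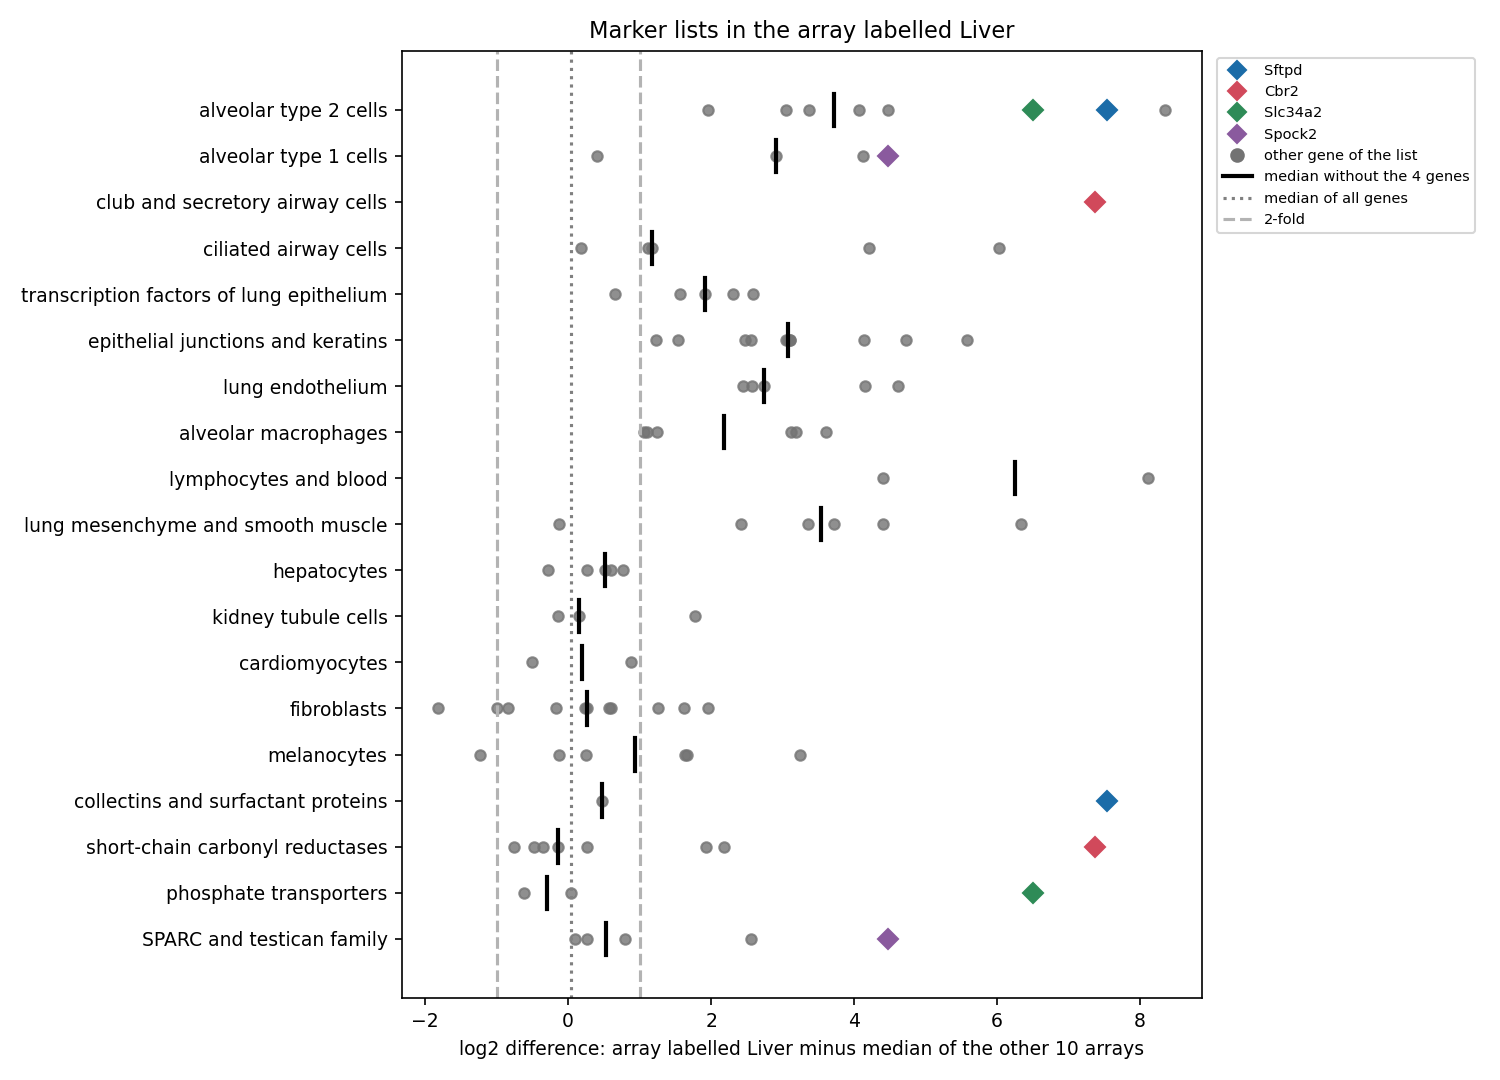
Each row is a marker list and each point a gene, placed by the log2 difference of the array labelled Liver minus the median of the other 10 arrays; diamonds are the 4 genes, bars the median of each list without them, the dotted line the median of all genes and the dashed lines 2-fold. Lists of lung epithelial, endothelial and blood cells have medians above 1, while the hepatocyte list has its median at 0.52 and the cardiomyocyte list at 0.19.

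Markers of other cells of lung tissue were mostly higher in the array labelled Liver than the median of the others. Several of these lists were high in other arrays too. All 5 endothelial genes measured, of 20 written, were at least 2-fold higher in the array labelled Liver, with a median of 2.74. They were led by the carbonic anhydrase of lung capillaries Car4 at 4.61 and the adhesion molecule Pecam1 at 4.16. Measured the same way, 4 of the 5 were higher in Kidney and 4 in the array with the label Melan A, where 11.6% and 12.7% of all genes were. Car4 stood at 1.92 in the array labelled Liver and 1.60 in Kidney, and endomucin (Emcn) was higher in Kidney, at 1.74 against 0.86.

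Of the mesenchymal and smooth muscle list 5 of 6 measured were higher in the array labelled Liver, and 4 of 6 in Kidney and in the array with the label Melan A. Mfap4 was higher by 4.40, Tcf21, a transcription factor of lung mesenchyme, by 3.72 and Mgp by 3.35, each of them leading the next array by more than 2-fold. Gpx3, a secreted peroxidase, was higher by 6.34 but stood at 0.00017 in the array labelled Liver against 4.07 in Kidney. Of the macrophage list 6 of 6 were higher in the array labelled Liver, led by Lpl at 3.61, although 0 of the 6 led the next array by 2-fold. Lpl stood at -0.57 in the array labelled Liver and at 4.56 in the array with the label Melan A. Measured the same way, 4 of 6 were higher in the array labelled Lung, 4 of 6 in that labelled Melan A and 3 of 6 in Kidney. The share of all genes was 12.7% for the array labelled Melan A and 11.6% for Kidney, and was not computed for that labelled Lung. C1qa, C1qb and C1qc were highest in the array labelled Lung. Haemoglobin beta (Hbb-b1) was higher by 8.11, with levels of 0.24 in the array labelled Liver and 0.20 in the array with the label Melan A. It and Laptm5, of white blood cells, higher by 4.40, had a median of 6.26 above the other 10 arrays in the array labelled Liver, 5.33 in the one with the label Melan A, 3.61 in Kidney and 3.51 in the array labelled Lung. The part of these cells in the levels of the 4 genes was not tested.

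Markers of other organs and of the cultured cell types were counted in the same way, against 9.59% of all genes higher. Of the hepatocyte list 0 of 5 measured genes, of 21 written, were at least 2-fold higher, and albumin (Alb) stood at -6.95 in the array labelled Liver against 2.54 in the array labelled Lung. Of the cardiomyocyte list 0 of 2 were, and of the kidney tubule list 1 of 3, the endocytic receptor Lrp2 at 1.77, which stood at 5.60 in Kidney. Of the fibroblast list 3 of 11 were higher and 1 lower (Pdgfra at -1.81), and the median was 0.27. Of the melanocyte list 3 of 6 were higher and 1 lower, with Ednrb at 3.25, Kit at 1.67, Rab27a at 1.63 and Mlph at -1.24. Ednrb and Kit led the next array, Kidney, by 1.52 and 1.38.

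Of the measured relatives of the 4 genes, some were at least 2-fold higher in the array labelled Liver, as were 9.59% of all genes. Mbl2, a collectin of the blood and the other measured gene of Sftpd's list, differed by 0.47 and stood at 6.35 in the array labelled Lung. Of the phosphate transporters, Slc20a1 differed by 0.04 and the mitochondrial carrier Slc25a3 by -0.62, against 6.51 for Slc34a2. Of 7 other short-chain reductases 2 were at least 2-fold higher, Dhrs3 by 2.18 and Dcxr by 1.93, and Cbr3 differed by 0.26. Neither Dhrs3 nor Dcxr was highest in the array labelled Liver. Dhrs3 stood at 1.24 there and 2.30 in the array labelled Lung, and Dcxr at 2.45 there and 3.13 in Kidney. Of 4 other genes of the SPARC family 1 was at least 2-fold higher, Sparcl1 by 2.56, which stood at 0.19 in the array labelled Liver and 0.30 in that labelled Melan A. The families are background groupings, and each difference is 1 array against 10 others.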

How the data were processed

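Own RNA (Cy3) and mouse embryo reference RNA (Cy5) were compared on 2-colour arrays, 1 array per sample, per the labels. The deposited values are log ratios, taken as log2; for their base, background correction and normalization, the sources used here give nothing. Each array gave 15170 to 15210 values of 15247 probes, with deposited medians of -0.03 to 0.03. The number of arrays limits the precision.

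Values were centred on each array's median, the sign was turned, and probes with 1 symbol in the platform's annotation were averaged per gene. Of the probes 9600 had 1 symbol, 214 several and 5433 none; 9492 were found by gene number in RefSeq (GRCm38.p6), which changed 0 symbols. No filter on low values was used. A gene was called at 2-fold (1 on the log2 scale). With 1 array per group no test was run and no p-value is given. Pearson correlations used the 7035 genes with 11 values.

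Named genes are the 4 members, up to 4 genes per marker list by the size of their difference, the 10 genes most like the members' mean and the 5 most like each member, and the 10 with the largest lead of the array labelled Liver. Genes singled out beside these were chosen after their values were seen. The members and lists were chosen with earlier results of these data known. The computation was tested on simulated data and run in Python 3.11.15 with pandas 2.3.3 and numpy 2.4.6. Alternatives were the sign, centring, scaling between arrays, probes per gene, log base, arrays used and fold.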

Additional observations from a re-analysis of the deposited data

How the results depend on the processing

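The direction of the ratio decides every sign. With the sign as deposited, Sftpd, Cbr2, Slc34a2 and Spock2 stood at -5.75, -6.10, -4.88 and -2.05 in the array labelled Liver, with medians of 1.79, 1.28, 1.63 and 2.43 over the other 10 arrays and differences of -7.54, -7.37, -6.51 and -4.47. Then 0 of the 4 genes were 2-fold higher there, the median difference from the array labelled Lung was -6.21, and Cbr2 in HRAS_MEL minus D6_MEL was -1.77. Under the other 6 settings run on the 44 levels of the 4 genes, 0 changed sign and all 4 genes stayed highest in the array labelled Liver. Reading the values as natural logarithms rescales all of them alike, so it could change no sign or rank. The median over probes equals the mean for these genes, so it could not either. Quantile normalization gave differences of 6.21, 6.02 and 5.61 for Sftpd, Cbr2 and Slc34a2 and 5.14 against the array labelled Lung. Scaling by the median absolute deviation gave 8.34, 8.22 and 7.40, and 6.87 against the array labelled Lung. One probe per gene gave 7.41 for Slc34a2. Read as natural logarithms, the differences became 10.9, 10.6, 9.39 and 6.45 for Sftpd, Cbr2, Slc34a2 and Spock2, and 8.96 against the array labelled Lung. Values with no centring or with the median over probes moved by less than the spread between probes.

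Pair correlations turned negative without the array labelled Liver for Sftpd with Spock2 (-0.18) and Cbr2 with Slc34a2 (-0.34). Over the 6 arrays of lines other than the one labelled Melan A they did so for Sftpd with Spock2 (-0.25), Cbr2 with Slc34a2 (-0.84) and Cbr2 with Spock2 (-0.31). At 4-fold in place of 2-fold, 2 ciliated cell genes and 2 transcription factors of 5 each were higher in the array labelled Liver. No paired analysis was possible because each group has 1 array.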

Other observations

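Probes without a single gene name were searched for the same pattern. Of 5626 such probes with values, 42 led in the array labelled Liver by at least 2-fold over the next array, and 1 led by at least the 3.96 of Spock2, at 5.06. Among the 9600 probes with 1 symbol, 8 led by at least that much, and the 6 probes of the members are among them. The probe without a single gene name is not identified here.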
